A study of Mus musculus with 4 samples.

Results

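The genes described here are 9 homeobox genes that act with or upstream of the Hox genes: Meis1, Meis2 and Meis3, Pbx2, Pbx3 and Pbx4, and Cdx1, Cdx2 and Cdx4. They were taken by name from the 21822 gene units of the RNA count tables, and all 9 were present. RNA was sequenced from aggregates of mouse iMN-ESCs, embryonic stem cells on a C57BL/6 background in which doxycycline (Dox) switches on an Isl1-Lhx3 fusion. Isl1 and Lhx3 are LIM-homeodomain factors found together in spinal motor neurons. All aggregates were grown for 2 days in stem cell medium with LIF followed by 2 days with all-trans retinoic acid at 0.5 µM. They then stayed in retinoic acid for another 2 to 3 days, without Dox in one group and with 2 µg/mL Dox in the other. Each group held 2 libraries, called biological duplicates. Every group carried the inducible transgene and received retinoic acid, and no group lacked the transgene but had Dox, so the drug and the fusion it induces cannot be told apart. No cell sorting is described, and in bulk RNA fewer cells of a type and less RNA per cell cannot be told apart.

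Meis and Pbx proteins belong to the TALE class of homeodomain factors, named for an insertion of amino acids in the homeodomain. They bind DNA beside Hox proteins and sharpen the choice of Hox target sites, and Meis binding helps to keep Pbx in the nucleus. In the hindbrain and spinal cord these cofactors take part in segment, column and pool identity, and Meis genes are known to respond to retinoic acid. Cdx proteins are homeodomain factors of the posterior embryo that switch on central Hox genes. Cdx2 is also a defining factor of trophectoderm and of intestinal epithelium.

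Total counts per library ran from 24020832 to 53903936. Levels are given as CPM, counts per 1000000 scaled by TMM. The induced factors followed the labels: Lhx3 stood at 0.404 and 0.286 CPM in the no Dox libraries against 124.6 and 107.8 CPM under Dox, and Isl1 at 3.08 and 5.83 against 104.1 and 82.4 CPM. Of 14278 genes tested with edgeR's quasi-likelihood test, the Dox libraries were higher in 175 and lower in 8 (adjusted p under 0.05), or 1.28% called. Libraries with the same replicate number shared a feature of coverage. The median gene with at least 5 parts held 27.2% and 28.0% of its counts in its 3′ terminal part in the replicate 1 libraries without and with Dox, and 35.0% and 32.5% in the replicate 2 libraries.

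With the group as the only term and the default filter on low counts, neither edgeR nor limma-voom called any of the 9 genes as changed with Dox, and DESeq2 called 2, Meis2 and Pbx3, as higher. DESeq2 was also freer with genes at large, where 403 passed on the upper side against 175 in edgeR, and 116 on the lower side against 8. Other settings changed the calls of the 9 genes. Of the 7 genes with enough counts for the test, 4 had an unadjusted p under 0.05 on the higher side (Meis1, Meis2, Meis3 and Pbx3) and 1 on the lower side (Cdx2). Over all 14278 genes tested, 893 had such a p on the higher and 573 on the lower side. In Meis1, Meis2, Meis3 and Pbx3 both Dox libraries lay above both others, as did 18.9% of all genes tested. In Cdx2 both lay below, as did 19.9% of all genes tested. Pbx2 and Pbx4 overlapped between the groups. The median log2 fold change of the 7 was 0.28, against -0.01 over all genes tested. Cdx1 and Cdx4 had too few counts to be tested.

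**Figure D1:**
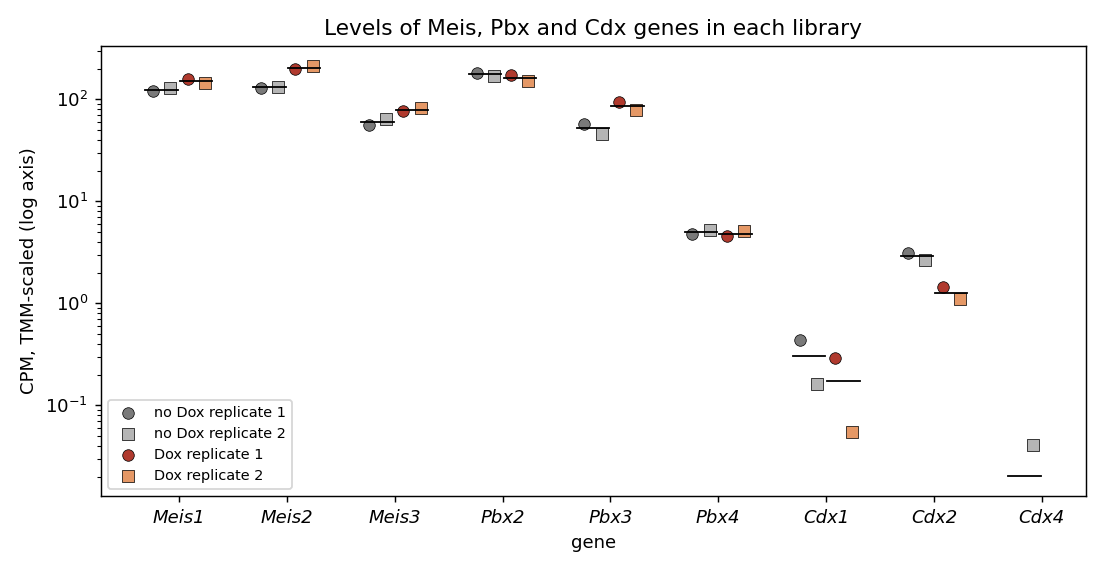
Level of each gene in each library, as TMM-scaled CPM on a log axis, with circles for replicate 1, squares for replicate 2 and bars for group means. Meis and Pbx genes other than Pbx4 sit between 45.8 and 209.8 CPM, while Cdx genes stay at or below 3.12 CPM; libraries of Cdx4 with 0 counts are not drawn.

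The 3 Meis genes were expressed at similar levels per length. Divided by the annotated exon length, Meis1 stood at 34.9 and 37.0, Meis3 at 32.6 and 37.2 and Meis2 at 29.6 and 30.6 CPM per kb without Dox. The ranges of Meis1 and Meis3 overlapped, and Meis2 lay below both. With Dox the values were 45.7 and 48.2 for Meis2, 43.9 and 47.5 for Meis3 and 45.6 and 42.0 for Meis1, all in CPM per kb. Neighbours in that order overlapped. Both Meis2 values, the lowest of the family without Dox, lay above both Meis1 values with Dox, by as little as the step from 45.6 to 45.7 CPM per kb. The annotated lengths of Meis1 and Meis2 are approximate, so the order of the 3 genes per kb is uncertain in both groups.

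Meis2 has the smallest adjusted p of the 9 genes and sits close to the threshold. It stood at 128.7 and 132.9 CPM in the no Dox libraries against 198.9 and 209.8 CPM under Dox. The replicates lay close to each other and the groups far from overlap. The means were 130.8 ± 2.99 and 204.3 ± 7.70 CPM (SD, n = 2), a log2 fold change of 0.64 (SE 0.11, a factor of 1.56, adjusted p = 0.0641 in edgeR's quasi-likelihood test). Settings in which the test passed included no filter on low counts (adjusted p = 0.0278), DESeq2 (0.000864) and a fit that left out no Dox replicate 2 (0.0443).

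Meis1, a cofactor of Hox and Pbx proteins also known from leukaemia, stood at 120.1 and 127.5 CPM in the no Dox libraries against 157.0 and 144.4 CPM under Dox. The groups did not overlap, but the gap between them was narrow. The log2 fold change was 0.28 ± 0.11 (SE, adjusted p = 0.469 in edgeR). Meis3, which directs posterior neural fate in frog embryos, stood at 56.5 and 64.4 CPM in the no Dox libraries against 75.9 and 82.2 CPM under Dox. Here too the groups stayed apart, with a log2 fold change (± SE) of 0.39 ± 0.12 (adjusted p = 0.315).

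Within the family, the ratio of Meis2 to Meis1 did not overlap between the groups. Per kb, the ratio of Meis2 to Meis1 was 0.848 and 0.825 without Dox and 1.0 and 1.15 with Dox. As a share of the 3 genes summed per kb, Meis2 held 30.5% and 29.2% without Dox and 33.8% and 35.0% with it. Meis1 held 35.9% and 35.3% without Dox and 33.7% and 30.5% with it, and Meis3 stayed between 32.4% and 35.5%. The summed level was 97.1 and 104.8 CPM per kb without Dox and 135.2 and 137.7 CPM per kb with Dox. These are descriptions, since the difference between the 2 genes was not tested. How often the ratio of 2 genes does not overlap between the groups was not counted, so this ratio has no background. Its size rests on the approximate lengths of Meis1 and Meis2, but its overlap between groups does not depend on length.

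The windows before the starts of the Meis genes are shown because these 3 genes had log2 fold changes on the same side, and that of Cdx2 because it lay on the other. Each is the 250 bases before 1 annotated RefSeq start, from assembly GRCm38.p6 (a later build than that of the counts), written 5′ to 3′ along the gene. Which start these cells use is not measured. Capitals mark a match to TTTATTG on either strand, a heptamer preferred by Cdx proteins.
Meis1, chr11:19018970-19019219, minus strand: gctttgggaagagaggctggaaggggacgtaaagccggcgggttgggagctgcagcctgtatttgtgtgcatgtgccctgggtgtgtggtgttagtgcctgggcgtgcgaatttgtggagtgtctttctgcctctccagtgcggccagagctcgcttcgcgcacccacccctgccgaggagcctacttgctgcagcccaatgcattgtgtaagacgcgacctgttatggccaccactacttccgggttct
Meis2, chr2:116064620-116064869, minus strand: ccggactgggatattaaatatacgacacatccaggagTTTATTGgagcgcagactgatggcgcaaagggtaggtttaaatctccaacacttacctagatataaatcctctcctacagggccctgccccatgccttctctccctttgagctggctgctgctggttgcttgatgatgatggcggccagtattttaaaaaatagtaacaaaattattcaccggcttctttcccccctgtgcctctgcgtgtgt
Meis3, chr7:16175145-16175394, plus strand: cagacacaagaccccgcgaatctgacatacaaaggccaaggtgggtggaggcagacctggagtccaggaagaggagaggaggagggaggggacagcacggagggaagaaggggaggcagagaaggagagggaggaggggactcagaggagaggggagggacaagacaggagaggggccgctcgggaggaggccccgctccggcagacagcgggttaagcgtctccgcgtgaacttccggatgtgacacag
Cdx2, chr5:147307250-147307499, minus strand: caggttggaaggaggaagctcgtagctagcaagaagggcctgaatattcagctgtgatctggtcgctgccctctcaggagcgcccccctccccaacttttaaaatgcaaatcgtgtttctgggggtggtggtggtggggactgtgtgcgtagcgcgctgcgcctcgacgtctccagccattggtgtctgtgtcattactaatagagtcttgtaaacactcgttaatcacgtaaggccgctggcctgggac

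The Meis2 window holds 1 such heptamer, which starts 213 bases before the gene's start, and that of Pbx4 holds 1 that starts 33 bases before it. Those of Meis1, Meis3, Cdx2, Pbx2 and Cdx4 hold none, and 4.2% of all 32851 windows of this length hold at least 1. In the same 7 windows no match was found to the Meis hexamer TGACAG (15.9% of all windows), the Pbx-Hox octamer TGATNNAT (7.68%) or the LIM-homeodomain core TAATTA (4.84%), on either strand. An exact form of the retinoic acid element of the DR5 type, GGTCA and its repeat with 6 free bases between, was in none of them. It was found in 0.0761% of all windows, and other forms of that element were not searched. These motifs do not contain one another, and windows farther from the start were not searched. In base composition the Meis windows were not alike. That of Meis2 is 47.6% G and C with 7 CpG pairs, those of Meis1 and Meis3 are 59.6% and 63.6% with 13 and 12 pairs, and the median window is 52.4% with 6. That of Pbx2 is 77.6% G and C with 27 pairs. Pbx3 and Cdx1 were not matched in the promoter table.

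The 3 Pbx genes spanned a wider range of levels than the Meis genes. Pbx2, a broadly expressed family member, was the highest of the 9 genes per annotated exon length. It stood at 182.2 and 168.3 CPM in the no Dox libraries against 171.3 and 151.2 CPM under Dox, which overlapped. The log2 fold change was -0.12 (SE 0.12, adjusted p = 0.856 in edgeR).

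Pbx3, which is also expressed in motor neurons, had the largest log2 fold change on the higher side. It stood at 57.7 and 45.8 CPM in the no Dox libraries against 93.3 and 79.0 CPM under Dox. The groups did not overlap, although its replicates lay farther apart than those of Meis2. The means were 51.7 ± 8.39 and 86.2 ± 10 CPM (SD, n = 2), a log2 fold change of 0.74 (SE 0.16, a factor of 1.66, adjusted p = 0.129 in edgeR's quasi-likelihood test). Settings in which it passed included no filter (adjusted p = 0.0437), DESeq2 (0.00839), and fits with no Dox replicate 1 (0.0168) or Dox replicate 2 (0.0238) left out. Of all genes tested, 94.6% had a smaller log2 fold change than Pbx3 and 93.6% a smaller one than Meis2.

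Pbx4, the family member best known from testis, was low in every library. It stood at 4.81 and 5.18 CPM in the no Dox libraries against 4.52 and 5.11 CPM under Dox. The groups overlapped, with a log2 fold change (± SE) of -0.05 ± 0.21 (adjusted p = 0.985 in edgeR) and a sign that turned in 3 of 12 other settings. The ratio of its summed counts, 448 with Dox to 258 without, was 0.976 after scaling (95% counting interval 0.836 to 1.14).

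Per length the order of group means without Dox was Pbx2 (57.1 CPM per kb), Meis1, Meis3, Meis2 (30.1), Pbx3 (22.3 and 17.7 in its libraries), Pbx4 (3.20), Cdx2 (1.28), Cdx1 (0.172) and Cdx4 (0.0104). Apart from Meis1 and Meis3, neighbours in this order did not overlap between their libraries. With Dox, Pbx2 still led at 55.8 and 49.3 CPM per kb, above the 48.2 CPM per kb of the higher Meis2 library. Pbx3 at 36.0 and 30.6 CPM per kb stayed below all Meis values. Comparisons with Meis1 and Meis2 in this order rest on their approximate annotated lengths.

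**Figure D2:**
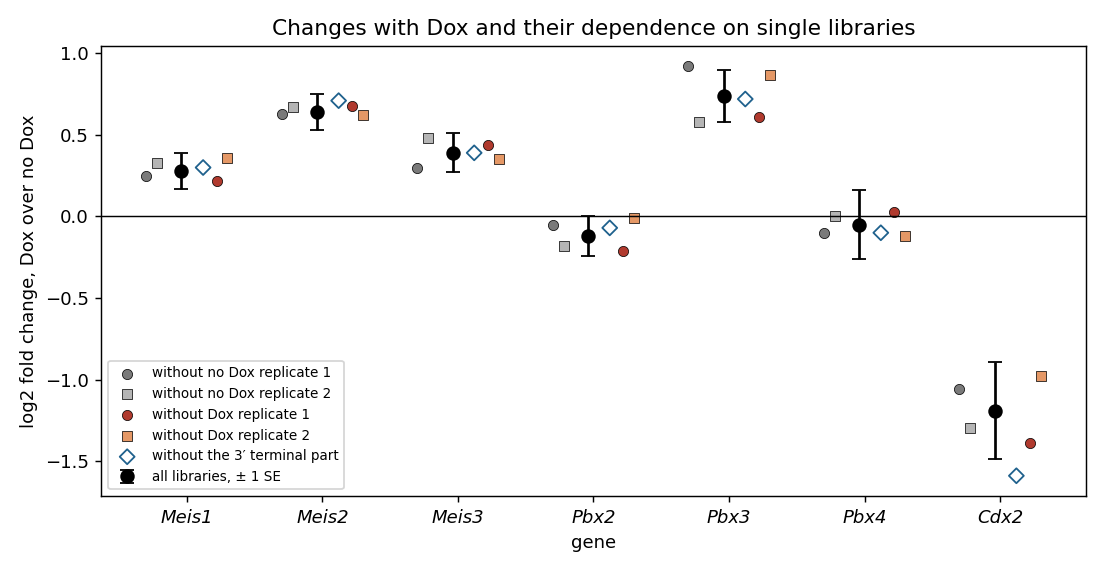
Log2 fold change (Dox over no Dox) of the 7 tested genes, with black points and bars for all libraries ± 1 SE, coloured points with 1 library left out, and open diamonds without the 3′ terminal part of each gene. Meis1, Meis2, Meis3 and Pbx3 stay above 0 and Cdx2 below 0 throughout, and Pbx4 lies on both sides of 0.

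The Cdx genes had the lowest levels of the 9. Cdx2 had 85 and 65 counts without Dox and 54 and 60 with Dox, or 3.12 and 2.65 CPM against 1.44 and 1.10 CPM. The groups did not overlap. The means were 2.89 ± 0.330 and 1.27 ± 0.245 CPM (SD, n = 2), a log2 fold change (± SE) of -1.19 ± 0.30 (adjusted p = 0.188 in edgeR's quasi-likelihood test). The ratio of summed counts was 0.427 (95% counting interval 0.332 to 0.549). This was the largest of the 7 log2 fold changes in size and also the one with the largest SE. Without Dox replicate 2 it was -0.98, and without the 3′ terminal part -1.59.

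Cdx1 had 12 and 4 counts without Dox and 11 and 3 with Dox. The ratio of the sums was 0.492 (95% counting interval 0.222 to 1.08). In both groups replicate 1 held more than replicate 2, with 0.440 against 0.163 CPM without Dox and 0.294 against 0.0549 CPM with it. Cdx4, which acts early in the caudal embryo and in blood formation, had 1 count in all 4 libraries together, in no Dox replicate 2. A count of 0 allows up to 3 counts, or 0.110 CPM in no Dox replicate 1 and 0.0802 and 0.0549 CPM in the Dox libraries. Intervals and floors cover counting error only.

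Cdx2 is also a marker of other cell types, and their genes were read beside it. Of 12 other trophectoderm markers, 9 were tested and none passed in edgeR, limma-voom or DESeq2, with 3 lower at an unadjusted p under 0.05. Their summed level was 144.6 and 139.0 CPM in the no Dox libraries against 117.2 and 130.4 CPM under Dox, most of it from Krt18 and Krt8. Of 10 intestinal markers, 6 were tested and none was called by any of these tools, with 1 higher at an unadjusted p under 0.05. They summed to 29.1 and 28.2 CPM in the no Dox libraries against 29.1 and 33.6 CPM under Dox. The 2 highest were Hnf4a, also a gene of visceral endoderm, and Isx. Of 10 neural progenitor markers, none was called by edgeR or limma-voom and 3 were lower in DESeq2, with 5 lower at an unadjusted p under 0.05. Their sum was 865.9 and 677.0 CPM in the no Dox libraries against 579.6 and 389.7 CPM under Dox. The neural progenitor and trophectoderm sums both lay lower in both Dox libraries, as Cdx2 did, and the intestinal sum did not. The 2 highest neural progenitor markers, Msi1 and Nes, had log2 fold changes of -0.47 and -0.66. The part of such cells in the Cdx2 values was not tested.

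Around the Cdx genes stand those of the tail bud and axial progenitors. Of 20 such genes 15 were tested, and edgeR called 1 higher, Mnx1, and none lower, while DESeq2 also called 1 lower. Mnx1 is also a motor neuron factor, and it stood at 2.31 and 0.938 CPM in the no Dox libraries against 48.5 and 43.9 CPM under Dox. Without adjustment, 3 of the 15 on the higher and 2 on the lower side had a p under 0.05, and the median log2 fold change was 0.37.

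The Hox genes are the partners of Meis and Pbx and targets of Cdx. Of 39 Hox genes 31 were tested, none was called by edgeR or limma-voom, and DESeq2 called 1 lower. With no adjustment, 2 had a p under 0.05, both lower, and the median log2 fold change was -0.15. Summed over genes, paralogue groups 1 to 5 held 675.6 and 600.0 CPM in the no Dox libraries against 668.5 and 529.3 CPM under Dox, and groups 6 to 9 held 249.0 and 183.3 against 181.1 and 114.6 CPM. Groups 10 to 13 held 5.16 to 6.04 CPM in every library. The 2 most abundant, Hoxb3 and Hoxc5, had log2 fold changes of -0.09 (adjusted p = 0.918) and 0.14 (adjusted p = 0.836). So the sums overlapped between groups at the anterior and posterior levels. At the level between them both Dox libraries lay below, by as little as the step from 183.3 to 181.1 CPM. Of 11 tested genes of that level, 5 log2 fold changes lay above 0 and 6 below. In 2 of the 11 both Dox libraries lay below both others, against 19.9% of all genes tested.

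Among other genes of the TALE class, 3 log2 fold changes lay above 0 and 8 below. Of 11 other members (Pknox1, Pknox2, Tgif1, Tgif2, Irx1 to Irx6 and Mkx), all were tested and none was called by edgeR or limma-voom, while DESeq2 called 1 lower. With no adjustment, 2 had a p under 0.05, both lower. Their median log2 fold change was -0.13. Irx3, a patterning factor of neural progenitors, stood at 70.5 and 59.7 CPM in the no Dox libraries against 48.1 and 35.2 CPM under Dox (adjusted p = 0.251). Tgif1, a corepressor that also limits retinoid signalling, had a log2 fold change of -0.11 (adjusted p = 0.868).

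Meis genes respond to retinoic acid, which all libraries received, so genes of that response were read as well. Of 14 tested, none was called by edgeR or limma-voom, and DESeq2 called 2 higher and 1 lower. Without adjustment, 2 on the higher and 1 on the lower side had a p under 0.05, and the median log2 fold change was 0.23. Cyp26a1, which clears retinoic acid, stood at 498.0 and 517.4 CPM in the no Dox libraries against 434.5 and 520.8 CPM under Dox. Crabp2, which carries retinoic acid to the nucleus, had 433.9 and 438.2 CPM in the no Dox libraries against 300.9 and 237.2 CPM under Dox (adjusted p = 0.132). The summed level of the list was 1515.0 and 1462.4 CPM in the no Dox libraries against 1323.9 and 1402.6 CPM under Dox.

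Meis and Pbx genes are also expressed in mesoderm and in neurons. Of 9 mesoderm markers tested, none was called by edgeR or limma-voom and DESeq2 called 2 higher. Their median log2 fold change was 0.65, with 3 higher and 1 lower at an unadjusted p under 0.05. Their summed level was low, at 26.1 and 33.9 CPM in the no Dox libraries against 44.4 and 47.5 CPM under Dox. It lay higher in both Dox libraries, as Meis2 and Pbx3 did. So did the sum of the motor neuron markers below. The sum of the 10 neuron markers below did too, but 8 of their log2 fold changes lay below 0 and 2 above. In 6 of these 10 both Dox libraries lay below both others and in 2 above, against 19.9% and 18.9% of all genes tested. Sums of the pluripotency and primitive endoderm markers did not lie higher in both Dox libraries. Twist1, the highest mesoderm marker, stood at 11.7 and 16.6 CPM in the no Dox libraries against 24.4 and 23.3 CPM under Dox (adjusted p = 0.215), and Hand2 had a log2 fold change of 0.38. Of 10 neuron markers, edgeR called none, limma-voom 1 higher, and DESeq2 2 higher and 2 lower, with 2 higher and 3 lower at an unadjusted p under 0.05. Their median log2 fold change was -0.49, and they summed to 713.4 and 518.4 CPM in the no Dox libraries against 1220.1 and 899.0 CPM under Dox. Nefl, a neurofilament, accounted for 277.4 and 166.0 CPM of the no Dox sums and for 900.1 and 659.3 CPM of the Dox sums (adjusted p = 0.0526), while Dcx had a log2 fold change of -0.38. Of 7 motor neuron markers 6 were called higher, led by Lhx3, Slc18a3 (adjusted p = 0.00065), Chat (0.000969) and Slc5a7 (0.00161) in edgeR. Isl1 and Lhx3 are on this list and also make up the induced fusion. Their counts were not split between the fusion and the cells' own genes, so their rise is not independent of the induction. Of 9 pluripotency markers 6 were tested and none passed in edgeR, limma-voom or DESeq2, with 1 higher at an unadjusted p under 0.05, and Klf4 and Dppa5a had log2 fold changes of -0.25 and 0.18. Primitive endoderm markers summed to 12034.9 to 13487.3 CPM over all libraries, mostly from Lama1 and next from Dab2, and none of the 10 passed in edgeR, limma-voom or DESeq2, nor had an unadjusted p under 0.05. The part of these cells in the Meis and Pbx values was not tested.

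The counts were deposited per part of a gene, which shows whether a difference ran along the whole transcript. In Pbx3 all 9 parts had both Dox libraries above both others, with log2 fold changes of 0.53 to 0.86. In Meis2 14 of 15 parts did, with 0.48 to 0.93. In Meis3 10 of 13 did (0.22 to 0.62) and in Meis1 9 of 13 (0.09 to 0.55), against 14.0% of all parts with at least 40 summed counts. Parts of a gene share its reads and libraries and are not separate replicates. The Meis3 parts that overlapped were the last 3 at the 3′ end, and those of Meis1 were the first part and the last 3. In Pbx2 8 of 9 parts overlapped between the groups and the 3′ terminal part lay lower. In Cdx2 the 2 parts with enough counts both lay lower, with log2 fold changes of -1.5 at the 5′ end and -1.01 at the 3′ end. The part at the 5′ end held 21 and 13 counts without Dox and 11 and 9 with Dox. The share of all parts that lay lower with Dox was not counted, so the lower parts of Pbx2 and Cdx2 have no such background.

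**Figure D3:**
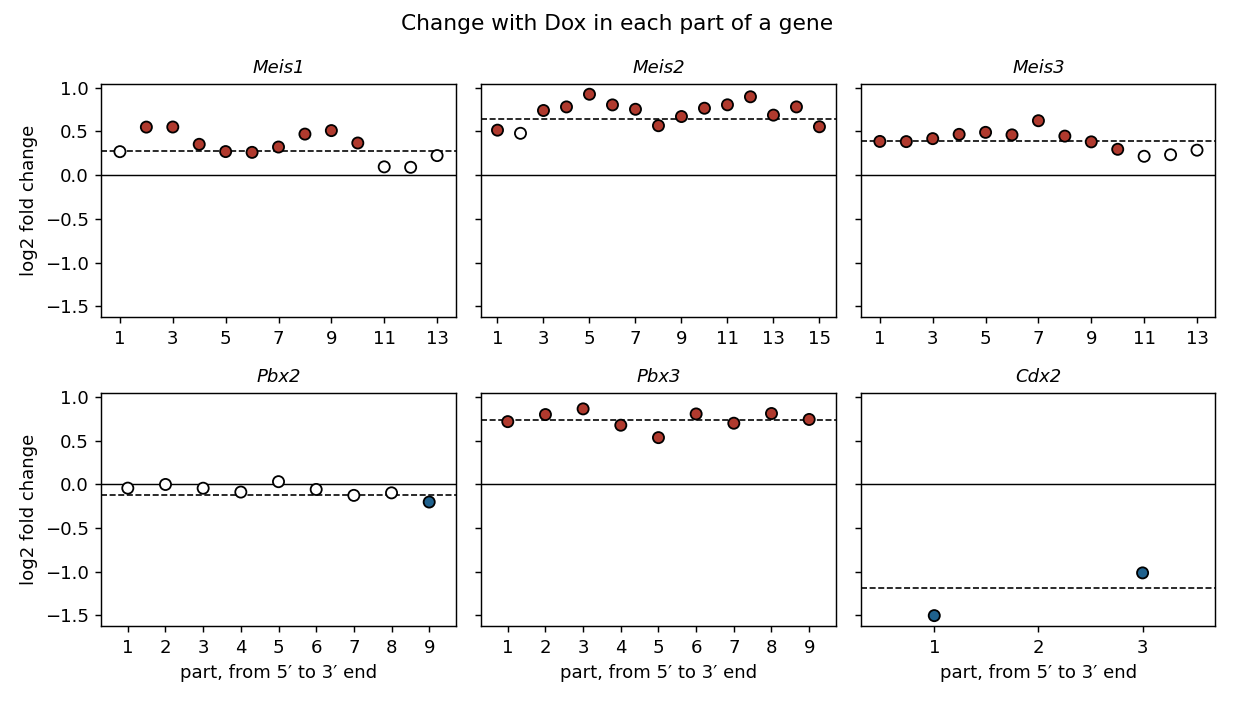
Log2 fold change (Dox over no Dox) of the mean CPM of each part with at least 40 summed counts, in order from the 5′ to the 3′ end; red parts have both Dox libraries above both others, blue parts below, white parts overlap, and the dashed line is the value of the whole gene. Every part of Pbx3 is red, and 14 of 15 parts of Meis2.

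Unequal use of parts was not called in any of the 7 tested genes (adjusted p = 1 by edgeR's F test and by its Simes test in each). Over all 11556 genes in that test, 0.0346% were called by the F test. Among single parts of these 7 genes the smallest unadjusted p was 0.313, in Meis2, so none was under 0.05. The share of counts in the 3′ terminal part followed the replicate number in the 3 Meis and 3 Pbx genes, as it did in the median gene, but not in Cdx2. In Meis2 it was 41.3% and 42.0% in the replicate 1 libraries without and with Dox, and 54.3% and 47.9% in the replicate 2 libraries. In Meis1 it was 34.2% and 35.4% against 45.5% and 41.6%, and in Pbx3 44.0% and 46.7% against 54.0% and 51.0%. Without the 3′ terminal parts of all genes, log2 fold changes were 0.71 (Meis2), 0.72 (Pbx3), 0.39 (Meis3) and 0.30 (Meis1). None of these was called in that edgeR fit (adjusted p = 0.139, 0.416, 0.76 and 0.779 in that order). Fold changes of similar size were thus seen in the rest of the transcript.

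**Figure D4:**
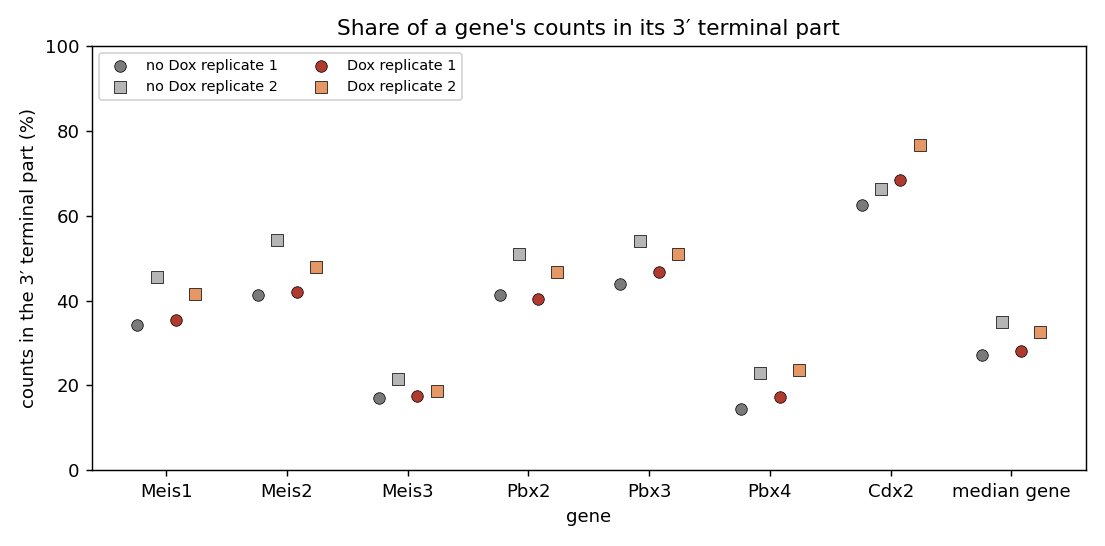
Percent of a gene's counts that fell in its 3′ terminal part, by library, with circles for replicate 1 and squares for replicate 2; the last column is the median over 9058 genes with at least 5 parts. In each of Meis1, Meis2, Meis3, Pbx2, Pbx3 and Pbx4 both squares lie above both circles, while in Cdx2 the shares run from 62.4% to 76.7%.

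Genes whose profile over the 4 libraries lay nearest to those of the leading member of each family were named by the Euclidean distance between centred log2 CPM values, among 10528 genes. Nearest to Meis2 were Adam11, with 25.5 and 25.9 CPM in the no Dox libraries against 38.8 and 42.7 CPM under Dox, Tes and Paqr8, at distances of 0.047, 0.059 and 0.061. Near to Pbx3 were Cadm1, a synaptic adhesion molecule with 141.4 and 109.8 against 222.5 and 195.4 CPM, and Ogdhl, at distances of 0.043 and 0.053. Nearest to Cdx2 were Pax6, which is on the neural progenitor list, with 148.6 and 134.2 against 87.2 and 67.4 CPM, Lrrc4 and Eya2, at distances of 0.095, 0.117 and 0.131. Pax6, Lrrc4 and Eya2 had log2 fold changes of -0.87, -0.96 and -0.88, against -1.19 for Cdx2. The pseudocount of 0.5 CPM in the profiles shrinks the differences of a gene as low as Cdx2. With 4 libraries many profiles lie close together, and these distances carry no test.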

How the data were processed

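RNA libraries followed the Illumina TruSeq protocol, per the labels' protocols. TopHat and mouse build mm9 are named in the submitters' processing notes. The sources used here do not name the counter, its annotation or its use of strand, or say whether a read over several parts is counted in each. The files deposited by the authors hold raw counts for 208825 parts of RefSeq gene units, 1 table per library. The 4 rows that name no gene stayed out; reads outside genes made up 13.6% to 15.8% of counts.

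Parts were summed to 21822 units, and 97.1% of 27601 RefSeq identifiers were named from the RefSeq table of GRCm38.p6 and GENCODE M21. Exon lengths and strand came from GENCODE M21 transcripts matched to each unit. For Meis1 and Meis2 that annotation splits into more parts than the counts do, so their lengths are approximate. Parts were read as numbered along the chromosome, since counts followed annotated lengths in that order (rank correlation 0.548 on the plus and 0.542 on the minus strand) and not in reverse.

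Libraries with and without Dox were compared with edgeR 4.0.16 (R 4.3.3; robust quasi-likelihood F test, TMM, default low-count filter, Benjamini-Hochberg at 0.05 over all genes), with DESeq2 1.42.0 and limma-voom (limma 3.58.1) among the alternatives. Duplicates were not repeats of 1 library: a chi-square test of their counts gave 36.5 per degree of freedom in the no Dox pair and 32.6 in the Dox pair. Nothing in the labels says how far the duplicates were separate cultures, so p-values rest on the variation between these libraries only. For each gene edgeR estimates that variation partly from the other genes tested. Profiles used a pseudocount of 0.5 CPM and genes averaging 5 CPM or more.

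All 9 genes are named. From 12 other gene lists up to 4 called genes with the smallest adjusted p are named or, with no call, the 2 with the largest mean. For the member with the smallest p in each family, the 3 nearest profiles are named. Isl1 was added as the other partner of the fusion. One gene that the rule names is not reported here. Members and lists were chosen with earlier results of these data known.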

Additional observations from a re-analysis of the deposited data

How the results depend on the processing

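Among the 7 tested genes only Pbx4 changed the sign of its log2 fold change, to 0.13 with the largest part as its count, and ran from -0.12 to 0.03 with 1 library left out (0.00 when no Dox replicate 2 was dropped, 0.03 when Dox replicate 1 was). Over all alternatives the log2 fold change ran from 0.59 to 0.71 for Meis2, 0.58 to 0.92 for Pbx3, 0.30 to 0.48 for Meis3, 0.22 to 0.36 for Meis1, -0.21 to -0.01 for Pbx2 and -1.59 to -0.98 for Cdx2. The number of these genes called higher was 0 in the main test, 2 with no filter, 2 with DESeq2, and 0 to 1 with a library left out; the number called lower was 0 in each of these. Cdx2 and Pbx4 could not be fitted under the filter at 5 CPM. Parts with unequal use were called in 0 of the members in every setting run.

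Over all genes, 175 were higher and 8 lower in the main test. The numbers were 295 and 46 with no filter, 104 and 4 with a mean of at least 5 CPM, 403 and 116 with DESeq2, and 80 and 0 without the 3′ terminal parts, an alternative chosen after seeing the data. Lower calls numbered 16 with library totals and 14 with the largest part. With a library left out, 271 to 280 were higher and 19 to 116 lower, and the lone library of a group was assumed to vary like the others. Over the other gene lists together, 6 genes were higher and 0 lower. DESeq2 gave 12 and 9, no filter gave 2 lower, and leaving out a library gave 8 to 10 higher and 0 to 12 lower. The causes were not tested.

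The labels do not say that equal replicate numbers mark a pair. Deviations of same-numbered libraries from their group means had a correlation of 0.606 across 14278 genes, which are not independent. A fit by edgeR with a replicate block called 1044 genes higher and 862 lower, 4 of the members higher and 1 lower, and 22 and 30 genes of the other lists. The members higher in that fit were Meis1 (adjusted p = 0.0292), Meis2 (1.27e-05), Meis3 (0.00392) and Pbx3 (6.52e-06), and the one lower was Cdx2 (0.00428). Depth limits the Cdx genes, whose counts per library stayed at 85 or fewer.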
